A study of Danio rerio with 24 samples.

Results

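Of 32266 genes counted in zebrafish rb1 brain tumors and normal brain, 6 were expressed in 1 tumor only. These were chosen on their measured levels: at least 10 CPM (counts per 1 M counts of the sample) in exactly 1 tumor, and less than 1 CPM in each of the other 9 tumors and in both control pools. Tumor 10 held 4 of them (gngt1, BX004774.2, rbp4l and arr3a), tumor 6 held hoxb7a, and tumor 9 held SSTR2. The other 7 tumors held none. Grouped by tissue, 3 of the tumor 10 genes are on a list of photoreceptor genes, hoxb7a is on a list of HOX genes of the hindbrain and spinal cord, and SSTR2 and BX004774.2 are on none of the 32 tissue lists read.

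The tumors came from 10 adult WIK zebrafish, 1 tumor per fish, in which TALENs, a pair of designed nucleases, had cut rb1 in exon 2 in somatic cells. Each fish is therefore a mosaic, and a tumor can hold cells without a lesion. The controls were 2 pools of 3 brains each from wild-type WIK fish of the same families. The study describes the control tissue as midbrain and hindbrain. Its methods state that 1 side of each brain was taken, for tumor fish and controls. This piece reached from the diencephalon to the rear of the cerebellum. The labels give all fish an age of 6.5 to 10 months, while the study's methods put the upper age slightly later. Every RNA sample gave library replicates a and b, summed here, so that 24 libraries stood for 12 RNA samples. Both the tumors and the controls are dissected tissue, in which more cells of a type and more RNA per cell cannot be told apart.

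Rod and cone photoreceptors of the retina turn light into a nerve signal through an opsin, the G protein transducin and a phosphodiesterase, and arrestin ends the response. The fish pineal organ, on the roof of the diencephalon, holds photoreceptors with many of the same proteins and makes melatonin at night. HOX transcription factors are encoded in clusters and set position along the body axis: genes at the 3′ end of a cluster are used in the hindbrain, those further 5′ in the spinal cord and trunk. Somatostatin receptors are G protein-coupled receptors for the somatostatin peptides, which inhibit hormone release and act as neuropeptides.

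Sequencing depth was 18.5 to 24.95 M counts per tumor, and pools 1 and 2 had 19.75 and 21.04 M. A count of 3, taken as the floor, is 0.120 to 0.162 CPM, and floors and intervals cover counting error only. The targeted gene rb1 was at 19.6 to 107 CPM in the tumors (median 27.8) and at 13.8 and 15.4 CPM in the pools, the highest value being that of tumor 9. A count over the whole gene does not read the lesion in exon 2 and so checks no label. The chi-square per degree of freedom between libraries a and b, which is 1 for sampling noise, was 1.04 to 1.597 in the tumors. Control libraries with the same letter but from different pools gave 1.004 and 1.01, whereas libraries a and b of the same pool gave 3.25 and 3.42. The control libraries of each letter thus agreed within sampling noise and count as 1 sample, so both ways of summing the controls are given where they matter.

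Tumor 10 held the genes of the photoreceptor list. The gene gngt1 (ENSDARG00000035798; the reference name table pairs this identifier with the symbol GNG11) encodes in its deposited name the gamma subunit of rod transducin. It had 539 counts in tumor 10, or 25.7 CPM (95% exact binomial interval 23.6 to 28.0). In the other 9 tumors it had 0, 0, 1, 2, 2, 0, 1, 3 and 2 counts, in the order of tumors 1 to 9, and in the pools 8 and 6. No other tumor was above the floor of 3 counts, and the next sample was control pool 1 with 0.405 CPM, 63.6-fold lower.

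The gene rbp4l (ENSDARG00000044684) encodes a relative of the plasma retinol carrier RBP4. Tumor 10 had 348 counts, or 16.6 CPM (14.9 to 18.5). There were 0, 0, 1, 0, 4, 0, 0, 1 and 3 counts in tumors 1 to 9 and 3 and 2 in the pools. With 5 tumors at 0 counts and 8 of 9 at or under the floor, it was the member with the largest distance to the next sample, tumor 5, which was 98.7-fold lower. Of all counts of rbp4l in the 12 samples, 96.1% were from tumor 10.

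Cone arrestin, arr3a (ENSDARG00000056511), had 232 counts in tumor 10, or 11.1 CPM (9.70 to 12.6). This is the member nearest to the upper threshold, and its interval includes 10 CPM. The counts were 2, 3, 4, 3, 2, 2, 1, 4 and 10 in tumors 1 to 9 and 9 and 12 in the pools. Tumor 9 (0.541 CPM) and the pools (0.456 and 0.570 CPM) lay above the other 8 tumors, at 0.0401 to 0.180 CPM, and tumor 10 was 19.4-fold above the next sample.

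The remaining tumor 10 gene is known by the name of a clone, BX004774.2 (ENSDARG00000093753; si:ch211-133l5.5 in the reference name table), and no role is given for it. It had 490 counts in tumor 10, or 23.4 CPM (21.4 to 25.6). In tumors 1 to 9 the counts were 8, 0, 2, 15, 8, 3, 3, 3 and 17. The pools had 19 and 20 counts, or 0.962 and 0.951 CPM, the member values nearest to the lower threshold. With the control libraries summed by letter, the values were 1.23 CPM for a and 0.683 CPM for b, and the gene then did not meet the rule.

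In tumor 6 the gene was hoxb7a (ENSDARG00000056030), a HOX factor of the trunk and spinal cord. It had 793 counts, or 32.1 CPM (29.9 to 34.4), which is above 75.6% of the genes with a count in that tumor. The counts were 5, 1, 2, 9 and 13 in tumors 1 to 5, then 14, 9, 0 and 0 in tumors 7 to 10, and 1 and 0 in the pools. Tumor 7 came next at 0.561 CPM, 57.1-fold lower, and 2 tumors and 1 pool had no count.

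In tumor 9 the gene was SSTR2 (ENSDARG00000069806), named as a somatostatin receptor. It had 643 counts, or 34.8 CPM (32.1 to 37.6). The counts were 6, 8, 4, 2, 5, 8, 19 and 9 in tumors 1 to 8, 7 in tumor 10, and 1 and 0 in the pools. All 9 other tumors had a few counts and tumor 7 came next at 0.761 CPM, 45.7-fold lower. The table also holds a gene named sstr2a, at 0.313 to 2.101 CPM in the tumors and at 3.75 and 3.28 CPM in the pools, so these reads were assigned to a different gene model.

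**Figure D1:**
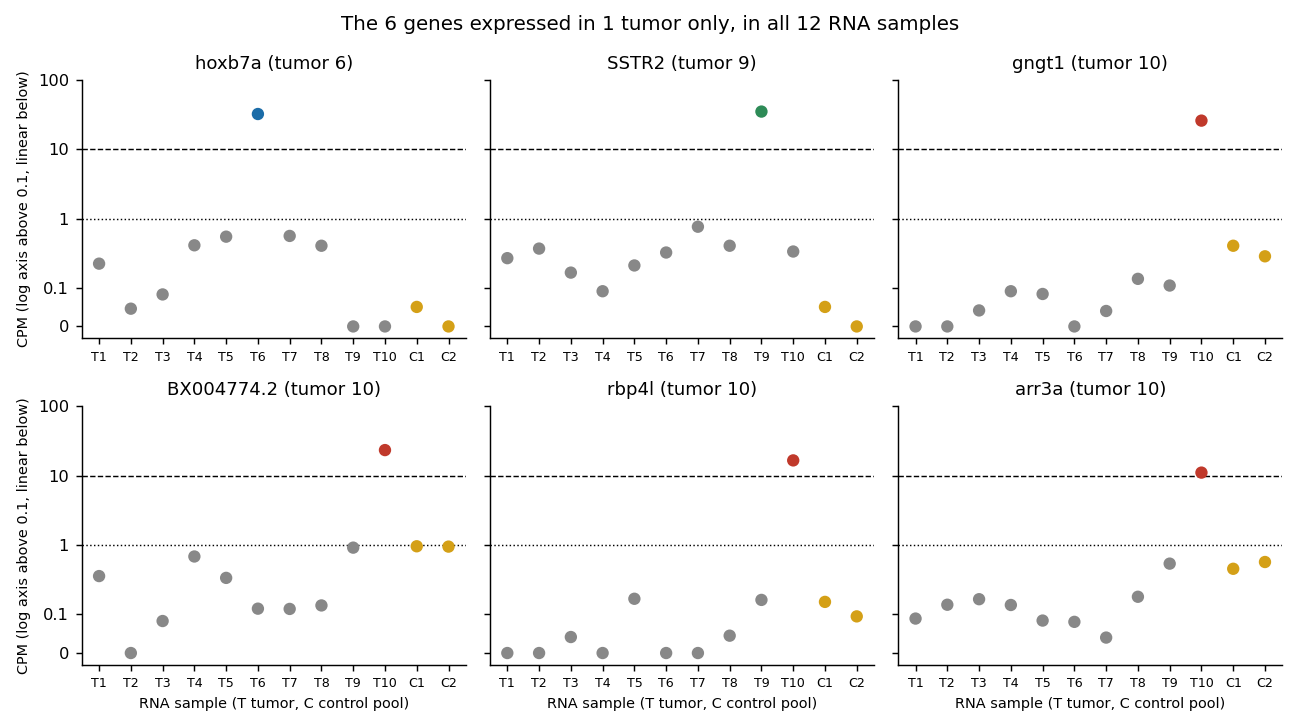
CPM of each of the 6 genes (1 panel each) in tumors 1 to 10 (T1 to T10) and control pools 1 and 2 (C1, C2). The vertical axis is logarithmic above 0.1 CPM and linear below, and each point is 1 RNA sample. The dashed and dotted lines are the thresholds of 10 and 1 CPM. In each panel 1 coloured point lies between 11.1 and 34.8 CPM and the other 11 lie under 1 CPM, as the rule required.

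Each member lay above 57.4% (arr3a) to 75.8% (SSTR2) of the genes with a count in its tumor. On the FPKM scale, which divides by exonic length and allows levels of different genes to be compared, SSTR2 was at 31.1 in tumor 9, hoxb7a at 20.4 in tumor 6, and gngt1, BX004774.2, rbp4l and arr3a at 27.9, 20.5, 11.4 and 6.45 in tumor 10. From 81.7% (arr3a) to 96.1% (rbp4l) of all counts of a member came from its tumor.

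Both library replicates of the tumor carried each gene. The levels in libraries a and b were 31.6 and 32.5 CPM for hoxb7a, 36.7 and 33.0 CPM for SSTR2 and 25.4 and 26.1 CPM for gngt1. They were 23.6 and 23.2 CPM for BX004774.2, 15.9 and 17.2 CPM for rbp4l, and 11.7 and 10.6 CPM for arr3a. The log2 ratio of CPM in b over a ran from -0.16 to 0.11. The rule applied to library a alone chose 7 genes, 5 of them members, with lrata and gnat1 of tumor 10 added and BX004774.2 lost. Applied to library b alone it chose the same 6 genes. These libraries come from the same RNA, so they show the technical spread and not whether another piece of the tumor would hold the transcript.

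The thresholds set how many genes were chosen. Just inside the upper one were arr3a (11.1 CPM) and rbp4l (16.6 CPM), and just outside it were lrata (9.74 CPM), the retinol acyltransferase of the visual cycle, and saga (9.31 CPM), an arrestin, both of tumor 10. Just inside the lower one were BX004774.2 (0.962 CPM in the next sample) and SSTR2 (0.761 CPM). Just outside it were SLC25A29, a mitochondrial carrier (45.0 CPM in tumor 10 and 1.01 CPM in tumor 6), and emilin2b, an extracellular matrix gene (10.4 CPM in tumor 2 and 1.096 CPM in tumor 4). With 5 CPM as the upper threshold 33 genes were chosen, 19 of them in tumor 10, and with 2 CPM as the lower one 22, of which 12 were in tumor 10. With both relaxed there were 69 genes, of which tumor 10 held 34, tumor 1 held 15 and tumor 6 held 6, and each of the other 7 tumors held 1 to 3.

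**Figure D2:**
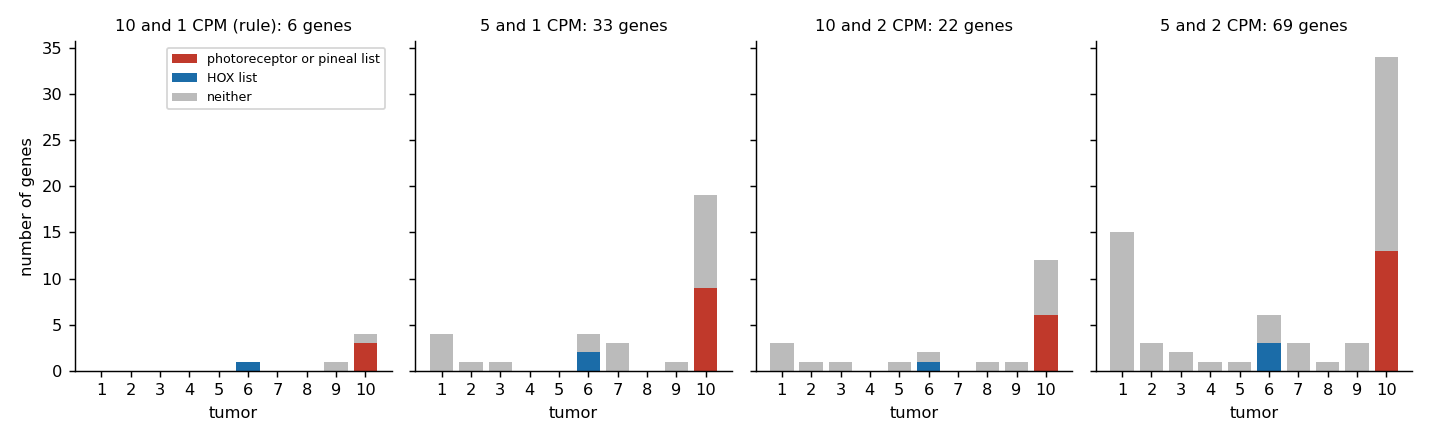
Number of genes chosen in each tumor (horizontal axis) under the rule and under 3 looser pairs of thresholds, with genes of the photoreceptor or pineal list, of the HOX list and of neither as stacked bars. Tumor 10 has the tallest bar in every panel, 4 of 6 genes under the rule and 34 of 69 with both thresholds relaxed.

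Of the 34 genes of tumor 10 under the looser thresholds, 13 are on the photoreceptor or pineal list. Those added by the looser thresholds include gnat1, the alpha subunit of rod transducin, at 49.8 CPM against at most 1.14 CPM in any other sample. They also include aanat2, the pineal enzyme of melatonin synthesis, at 33.1 CPM against at most 1.11 CPM. The calcium sensor gene rcvrn3 was at 29.1 CPM against at most 1.98 CPM, and guca1a, an activator of photoreceptor guanylate cyclase that is not on the list, at 18.3 CPM against at most 1.12 CPM. Both gnat1 and aanat2 were under 1 CPM in all other tumors and missed the rule through the control pools.

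Among other genes of tumor 10 that came near the rule, apobec2a, chrm5a and CABZ01109058.1 are on none of the 32 tissue lists read. The cytidine deaminase family gene apobec2a was at 274 CPM in tumor 10 and at most at 1.62 CPM elsewhere. The muscarinic acetylcholine receptor gene chrm5a was at 145 CPM against at most 1.41 CPM, and the clone-named CABZ01109058.1 at 79.4 CPM against at most 1.78 CPM. Per length they were at 198, 94.5 and 154 FPKM, where the highest member, SSTR2 in tumor 9, was at 31.1 FPKM.

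Of the genes at 5 CPM or more in a tumor and at least 4-fold above every other sample, 46 of 93 had tumor 10 as the highest sample, 17 had tumor 1, 7 tumor 6 and 5 tumor 9. Tumor 1, which held no member, had genes such as the complement gene c3a.1 (12.1 CPM, with tumor 7 next at 1.403 CPM) and illr3, an immune-related lectin receptor (7.64 CPM, with tumor 10 next at 0.860 CPM).

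**Figure D3:**
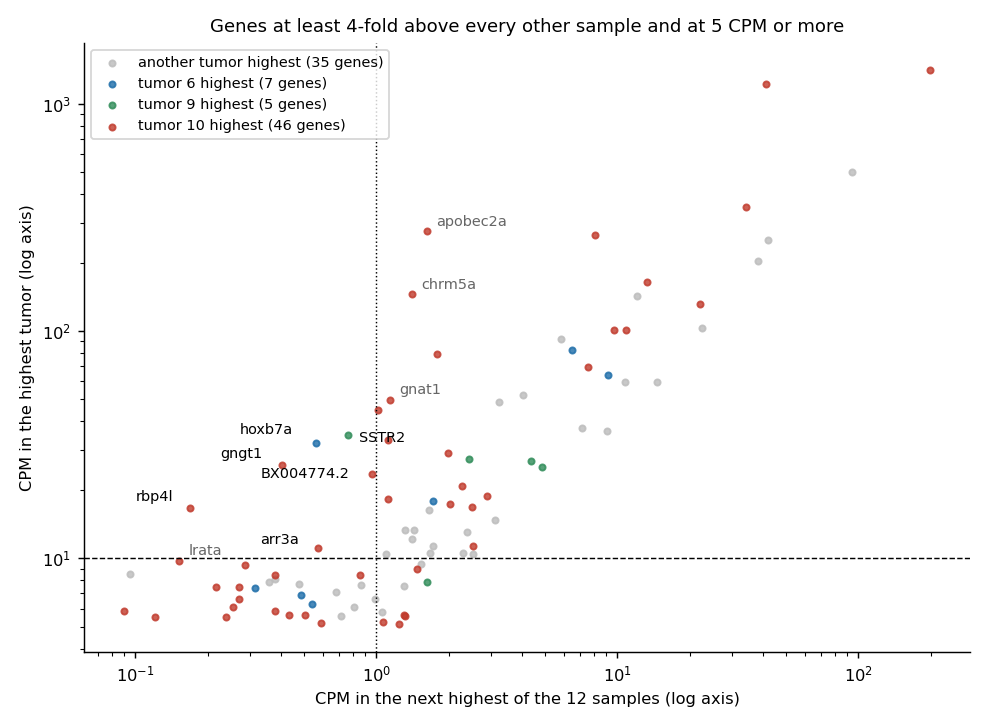
CPM in the highest tumor (vertical, log axis) against CPM in the next highest of the 12 samples (horizontal, log axis) for the 93 genes at 5 CPM or more and at least 4-fold above every other sample, 1 point per gene, coloured by the highest tumor. The 6 members fill the upper left field, above 10 CPM and left of 1 CPM, and gnat1, chrm5a and apobec2a lie just to the right of it.

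The genes of the lists that are not members were then read in the same samples. The members themselves were not used, but the lists were chosen with the members known, so the values are a description. Of 45 matched photoreceptor genes, 42 are not members. At least 1 CPM was reached by 23 of the 42 in tumor 10, by 3 to 6 in each of the other tumors and by 5 in both pools, and 17 were under 1 CPM in every sample. Tumor 10 alone reached 1 CPM for 13 genes, which could be highest nowhere else. Of the 12 genes that reached 1 CPM in another sample, tumor 10 was the highest for 9, and over all 19892 genes that did so it was the highest for 4.71%.

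Rod and cone genes were both among them. The rod phosphodiesterase gene pde6a was at 17.4 CPM in tumor 10, at 0.162 to 1.04 CPM in the other tumors and at 2.02 and 1.81 CPM in the pools. Rhodopsin, rho, had 6.11 CPM in tumor 10 and at most 0.253 CPM elsewhere. The red cone opsin gene opn1lw2 had 5.49 CPM and at most 0.120 CPM elsewhere, and the cone opsin kinase gene grk7a 5.49 CPM and at most 0.238 CPM. The photoreceptor transcription factors crx and nr2e3 had 4.97 and 1.05 CPM in tumor 10 and at most 0.323 and 0.238 CPM elsewhere. Other genes of the list were not highest in tumor 10. There rom1a was at 0.621 CPM, against 2.936 and 1.997 CPM in the pools. The gene rom1b was at 0.143 CPM, against 0.607 and 0.333 CPM in the pools. In tumor 10 guca1c was at 0.382 CPM, against 0.761 CPM in pool 2, and guca1b had no count. The genes rom1b, guca1c and guca1b were under 1 CPM in every sample.

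Transducin subunits showed how unequal the levels within tumor 10 were. Per length, gngt1 was at 27.9 FPKM and gnat1 at 25.3 FPKM, while rho was at 3.92 FPKM and the cone genes gngt2a and gnat2 at 8.64 and 1.43 FPKM. The beta subunit gene gnb1b was high in all samples (393 to 556 CPM). It made up most of the summed level of the list, 699 CPM in tumor 10 against 428 to 566 CPM in the other tumors. Without gnb1b, a choice made after its values were seen, the sum was 188 CPM in tumor 10, 9.73 to 17.5 CPM in the other tumors and 19.6 and 20.2 CPM in the pools.

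Tumor 10 was also the highest sample for some visual cycle genes, which were picked after their values were seen, and not for others. The retinol dehydrogenase gene rdh5 was at 5.83 CPM against at most 0.0900 CPM elsewhere, and the retinal carrier gene rlbp1a at 4.78 CPM against at most 0.506 CPM. The isomerase gene rpe65a was at 9.03 CPM in tumor 10, 0.8999 to 4.34 CPM in the other tumors and 0.607 and 0.713 CPM in the pools. The paralogue rpe65b was lower in tumor 10 (0.716 CPM) than in any other sample, and rlbp1b was at 1.72 CPM against 2.48 and 2.33 CPM in the pools. Of the 16 genes of the retina and pigment epithelium list that reached 1 CPM, 3 were highest in tumor 10. For 1 gene tumor 10 alone reached 1 CPM. Of the 15 that did so in another sample, tumor 10 was the highest for 2, against 4.71% of all such genes. The summed level of that list was not highest in tumor 10 (63.6 CPM, against 36.7 to 69.3 CPM in the other tumors and 196 and 201 CPM in the pools).

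The pineal list was split. Of its 11 matched genes 10 reached 1 CPM, and 5 of these were highest in tumor 10. For 1 gene tumor 10 alone reached 1 CPM. Of the 9 that did so in another sample, tumor 10 was the highest for 4, against 4.71% of all such genes. Melatonin pathway genes fell on both sides. Among the 5, tph1a, which encodes tryptophan hydroxylase, had 19.2 CPM in tumor 10 against 0.553 to 2.59 CPM in the other tumors and 9.16 and 9.70 CPM in the pools. The gene of the last enzyme, asmt, had 20.7 CPM against 0.457 to 2.27 CPM in the other tumors and 1.92 and 1.47 CPM in the pools. The related enzyme genes aanat1 and asmt2 were not highest in tumor 10, with 0.764 and 7.07 CPM there against up to 1.85 CPM in tumor 5 and 13.6 CPM in pool 2. The pineal factor otx5 had 3.34 CPM and at most 0.323 CPM elsewhere. In contrast, the opsin genes parietopsin and parapinopsinb were at 7.26 and 6.64 CPM in tumor 10 and higher in both pools (16.3 and 18.02 CPM for the first, 10.1 and 11.3 CPM for the other). The summed level was 110.3 CPM in tumor 10, 14.6 to 30.2 CPM in the other tumors and 64.8 and 65.3 CPM in the pools.

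**Figure D4:**
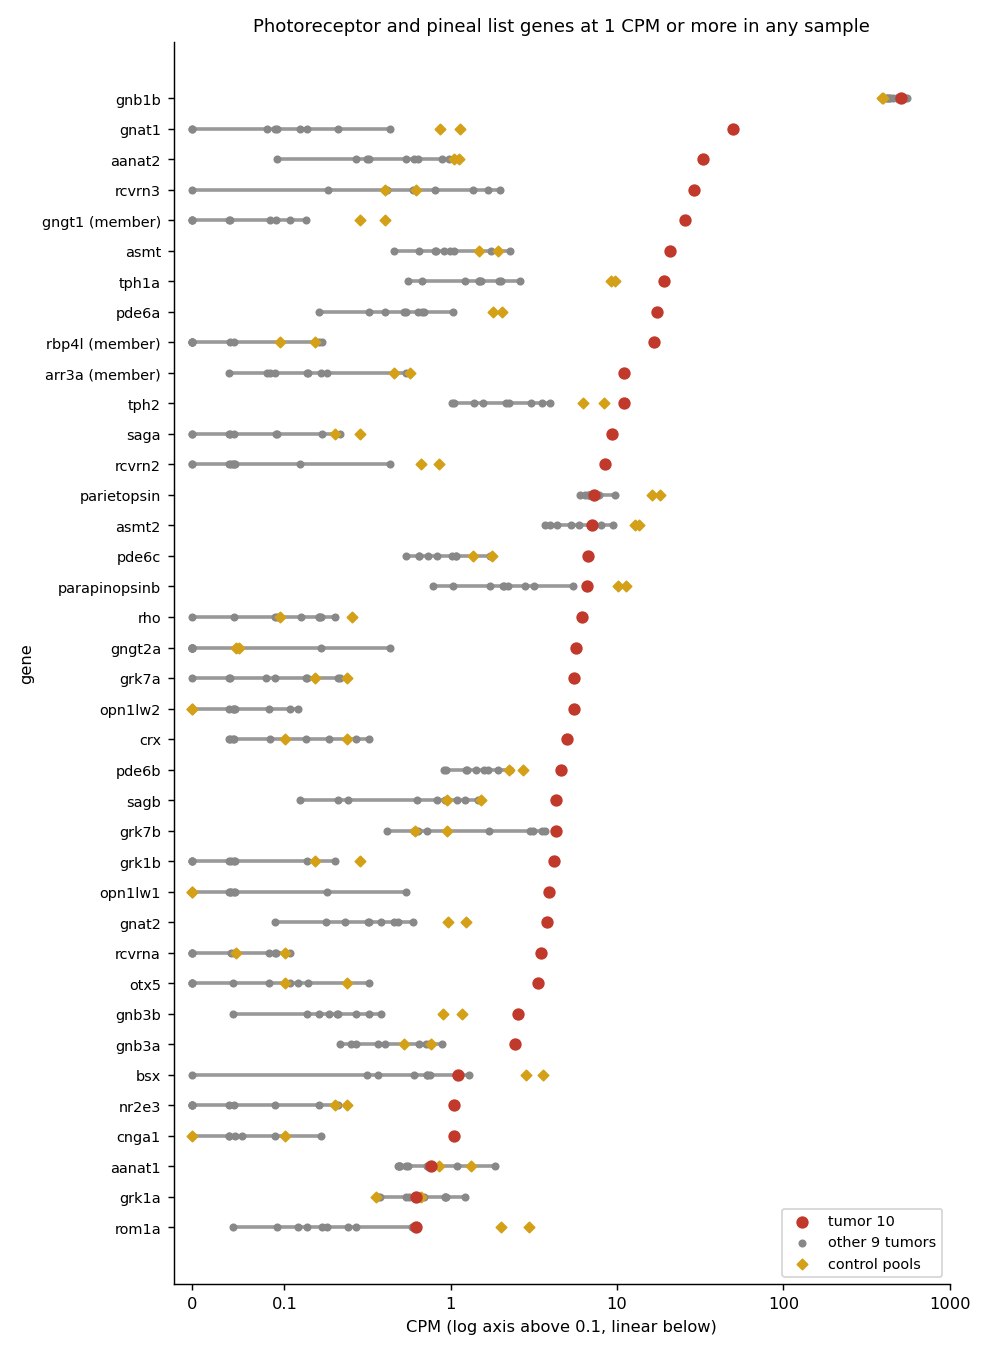
CPM (horizontal, log axis above 0.1 CPM, linear below) of the photoreceptor and pineal list genes that reached 1 CPM in any sample, in tumor 10 (red), the other 9 tumors (grey, with the line from lowest to highest) and the 2 control pools (diamonds). Tumor 10 lies to the right of all other samples for most genes, such as gnat1 at 49.8 CPM, while gnb1b is high in every sample and parietopsin is highest in the pools.

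Of the 32 lists, the red cell, liver and peripheral nerve lists were picked because their summed level was higher in tumor 10 than in any other tumor. The red cell list had 735 CPM against 81.6 to 254 CPM in the other tumors and 390 and 398 CPM in the pools. The liver list had 968 CPM against 504 to 657 CPM, below the 1079 and 1083 CPM of the pools. The list for peripheral nerve and ganglia had 1197 CPM against 304 to 829.5 CPM, near the 1133 and 1136 CPM of the pools. Of the genes that reached 1 CPM, 12 of 15 on the red cell list were highest in tumor 10. The counts were 2 of 21 on the liver list, 2 of 19 on the peripheral nerve list and 0 of 7 on the lens list. Lens is a tissue of the eye that lies near the retina. Over all 19989 genes that reached 1 CPM in a sample, tumor 10 was the highest for 5.17%. The part of other tissue in the tumor 10 genes was not tested.

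In tumor 6, HOX genes other than hoxb7a were read as well. Of 48 matched HOX genes, 47 are not members. Tumor 6 had 10 of the 47 at 1 CPM or more, the other tumors had 0 to 2 and the pools none, and 37 were under 1 CPM in every sample. For 6 of the 10, tumor 6 alone reached 1 CPM. The remaining 4 also did so in another sample, and 3 of them (hoxb3a, hoxb2a and hoxa9b) were highest in tumor 6. Over all 19963 genes that reached 1 CPM in another sample, tumor 6 was the highest for 5.53%. The summed level of the genes that are not members was 114 CPM in tumor 6, 2.68 to 37.1 CPM in the other tumors and 5.92 and 5.94 CPM in the pools.

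The hoxb genes differed in how far other tumors shared them. The hindbrain gene hoxb3a was at 67.0 CPM in tumor 6, but also at 19.6 CPM in tumor 4 and 16.5 CPM in tumor 10, and at most at 1.62 CPM in the other 7 tumors. Another hindbrain gene, hoxb2a, was at 23.1 CPM in tumor 6 and at 0.138 to 13.8 CPM in the other tumors, with 4 of them above 5 CPM. By contrast hoxb5a and hoxb6a were at 1.98 and 1.29 CPM in tumor 6 and at most at 0.190 and 0.0894 CPM elsewhere.

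By the order of gene models in the RefSeq annotation of assembly GRCz12tu, used here for order only, hoxb7a is listed between hoxb8a and hoxb3a. Then come hoxb6a and hoxb5a. A long model can place a gene away from its coding part, so this is not read as the order of the coding parts. On the 5′ side hoxb8a had 11 counts in tumor 6 (0.445 CPM) and hoxb9a had 0. In this list hoxb7a at 32.1 CPM stood between hoxb8a at 0.445 CPM and hoxb3a at 67.0 CPM, with hoxb6a at 1.29 CPM next. From other clusters, hoxa3a was at 6.31 CPM and hoxa9b at 5.50 CPM in tumor 6, against at most 0.540 and 1.57 CPM elsewhere, and hoxa10b at 1.78 CPM against at most 0.276 CPM. Only hoxa2b of the 10 had its highest value in another sample, tumor 2, with 1.98 CPM against 1.86 CPM in tumor 6.

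**Figure D5:**
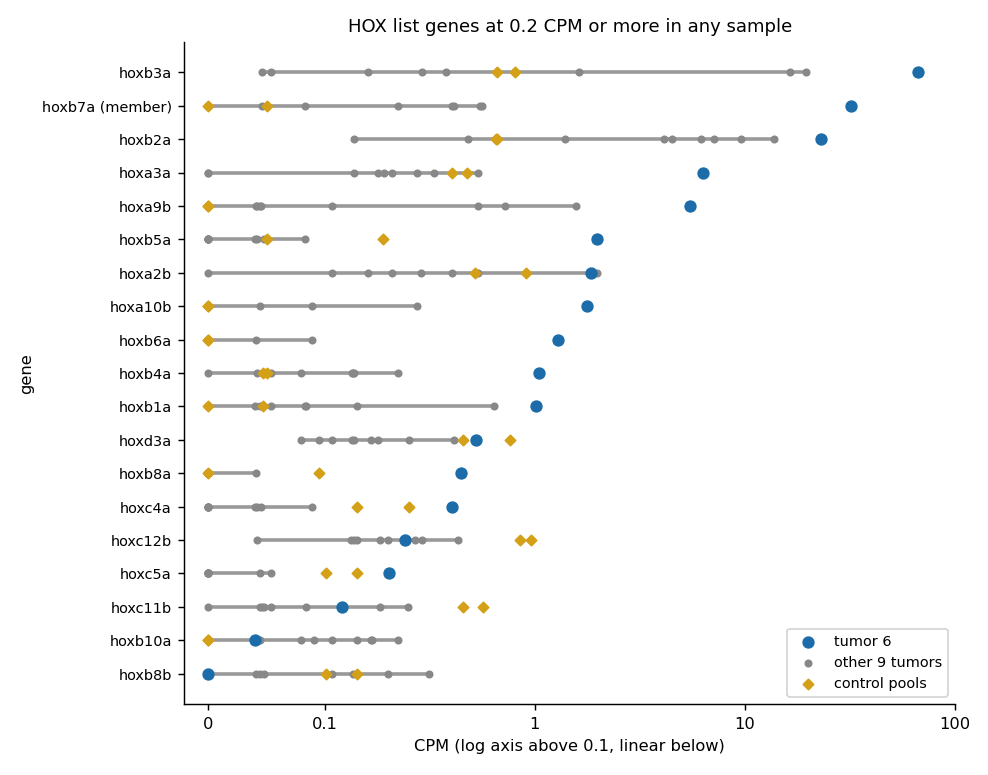
CPM (horizontal, log axis above 0.1 CPM, linear below) of the HOX list genes at 0.2 CPM or more in any sample, in tumor 6 (blue), the other 9 tumors (grey, with the line from lowest to highest) and the 2 control pools (diamonds). hoxb7a at 32.1 CPM stands 57.1-fold above the next sample, whereas hoxb3a and hoxb2a, at 67.0 and 23.1 CPM, are shared with other tumors at up to 19.6 and 13.8 CPM.

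Of 11 other somatostatin receptor and peptide genes matched by name, 9 reached 1 CPM. The pools were above the tumors for most of them, and none had its highest value in tumor 9, while 3 (sst3, sst1.1 and sstr1b) were higher there than in any other tumor. Their summed level was 37.1 CPM in tumor 9, 8.66 to 34.9 CPM in the other tumors and 163 and 166 CPM in the pools. The one with the most counts, the peptide gene sst3, was at 16.2 CPM in tumor 9, 2.53 to 15.6 CPM in the other tumors and 80.5 and 82.9 CPM in the pools. Another gene near the rule in tumor 9 was serpine3, of the serpin protease inhibitors, at 27.2 CPM in tumor 9 and at most at 2.43 CPM elsewhere.

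Neighbours on the chromosome were read for the 4 members that could be placed by name in the RefSeq order (gngt1, rbp4l, arr3a and hoxb7a), 3 protein-coding genes on each side. Of 20 neighbours found in the count table, 16 were at 1 CPM or more in the tumor of the member, and 5 of the 20 were above all other tumors. These were hoxb8a, hoxb3a, hoxb6a and hoxb5a beside hoxb7a, and pde6b, the rod phosphodiesterase gene whose model overlaps rbp4l in that annotation. Over all 19989 genes that reached 1 CPM in a sample, tumor 10 was the highest sample for 5.17% and tumor 6 for 5.65%. That share also counts the pools and so is stricter. The neighbours were not filtered at 1 CPM, and hoxb8a, at 0.445 CPM in tumor 6 and lower elsewhere, is not among the 19989 genes. The pde6b gene was at 4.63 CPM in tumor 10, 0.913 to 2.28 CPM in the other tumors and 2.23 and 2.71 CPM in the pools. Whether the counting used strand is not given in the sources used here, so reads of rbp4l and pde6b may not be fully separated. None of the matched neighbours of gngt1 (such as calcr, tfpi2 and bet1) or of arr3a (such as fam89b and ehbp1l1b) was above all other tumors.

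The same was read beside 4 genes just or further outside the lower threshold. Of 5 matched neighbours of apobec2a, 4 were above all other tumors in tumor 10. The cell cycle inhibitor gene cdkn1a was at 352 CPM against 7.53 to 34.2 CPM in the other tumors. Its mean in the pools was 6.04 CPM. The receptor gene gpr37l1a was at 27.9 CPM against 3.26 to 14.1 CPM in the other tumors. Its mean in the pools was higher than tumor 10, at 31.5 CPM. Closer to the other tumors were srsf3b (613 against at most 510.0 CPM) and arl8a (259.6 against at most 253 CPM). Their means in the pools were 244 and 217 CPM. For chrm5a it was 2 of 3 neighbours, for SLC25A29 0 of 3 and, in tumor 9, for serpine3 2 of 6. The 2 counted neighbours of serpine3, wdfy2 and fam124a, were at 37.3 and 2.65 CPM in tumor 9. Their means in the pools were higher, at 74.6 and 6.28 CPM. Of the 2 counted neighbours of chrm5a, zgc:194887 (4.16 CPM in tumor 10) has a model that overlaps chrm5a in that annotation. Reads of these 2 genes may not be fully separated. Over all genes that reached 1 CPM in a sample, tumor 9 was the highest sample, pools included, for 8.76% and tumor 10 for 5.17%. These shares are stricter than the neighbour counts, which leave out the pools. The neighbours were not filtered at 1 CPM. The genes apobec2a, chrm5a and serpine3 were picked after their values were seen, so these counts are a description.

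The study compared all tumors with the controls, which averages over the tumors. In the edgeR quasi-likelihood test of 10 tumors against 2 pools, with Benjamini-Hochberg adjustment, 47.7% of the 20957 genes tested were called (adjusted p no higher than 0.01, with a change of 1.5-fold or more), 22.8% as higher and 24.9% as lower in tumors. Of the 6 members, 4 passed the filter on low counts (gngt1 and rbp4l did not) and 0 of the 4 were called, also 0 at an unadjusted p under 0.05. In this edgeR test, SE was taken as the absolute log2 fold change divided by the square root of the F statistic. The log2 fold changes were 6.93 (SE 3.74, adjusted p = 0.122) for SSTR2 and 6.92 (SE 4.09, adjusted p = 0.155) for hoxb7a. For BX004774.2 and arr3a they were 1.52 (SE 2.23) and 1.35 (SE 2.06). Since the rule used these samples, nothing is read from this. Of the 20 photoreceptor genes tested, members included, 1 was called higher (the blue cone opsin gene opn1sw2) and 1 lower (rom1a). The opn1sw2 gene was at 0.908 CPM or less in every sample. The median log2 fold change of the 20 genes was 0.25 against 0.09 over all genes tested. Of 9 pineal genes 0 were higher and 3 lower (parietopsin, asmt2 and parapinopsinb), with a median of -1.17. Of 10 HOX genes 0 were higher and 2 lower (hoxc11b and hoxc12b), with a median of 1.96. No HOX gene was at 1 CPM or more in both pools, so these 2 calls rest on low levels. Of 10 somatostatin genes 0 were higher and 8 lower, with a median of -2.48.

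DESeq2, the tool named for the study's comparison, by default replaces a count that lies far from the others of its group where a group has 7 or more samples. It did so for 248 of 28548 genes (0.869%), and all 6 members were among them. The count of hoxb7a in tumor 6 became 5 in place of 793, that of SSTR2 in tumor 9 became 5 in place of 643, and that of gngt1 in tumor 10 became 2 in place of 539. For BX004774.2, rbp4l and arr3a the counts 490, 348 and 232 became 9, 1 and 4. The log2 fold change of gngt1 was -2.52 (SE 0.96) with the replaced count and 2.98 (SE 2.88) without replacement, so its sign depended on the value of 1 tumor. With replacement 0 of 6 members were called (3 had an unadjusted p under 0.05). Over all 24673 genes tested, 5394 were then called higher in tumors and 5676 lower. Without replacement only SSTR2 was called among the members, at a DESeq2 adjusted p of 0.00746, and over all genes 5392 were higher and 5636 lower. The rule used these samples, so nothing is read from these member counts.

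The number of members in a tumor was set against its total counts. Over 10 tumors, Pearson's r was -0.36 (permutation p = 0.269) and Spearman's rho was -0.38 (permutation p = 0.283), the only relation across samples that was computed, so that no adjustment was made. Without tumors 9 and 7, the farthest from the median total, r was -0.39 (permutation p = 0.357) and rho was -0.11 (permutation p = 0.785). Tumor 10 with 4 members had 20.9 M counts, fewer than 8 of the other 9 tumors. The 7 tumors without a member are part of this relation, and 4 of 6 members came from 1 tumor. The relation thus rests on few values, and nothing is read from it about depth.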

How the data were processed

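Counts per Ensembl gene were deposited by the authors without normalization, and FPKM values were computed by the authors from these counts, the summed exonic length and the library total. The submitters' processing notes name GSNAP, HTSeq, DESeq2 and assembly GRCz10. The study's methods state the steps (uniquely mapped single-end reads, counted with HT-Seq) once, after its tumor and larval libraries, and they were taken to hold for both. The deposited FPKM followed from the counts by the stated formula. Where multiply mapped reads were left out, near-identical gene copies are undercounted. The authors' table of fold changes and p-values was not used.

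Libraries a and b were summed per RNA sample and CPM was computed by total counts (Python 3.11.15, SciPy 1.17.1). The test of tumors against controls was edgeR 4.0.16 in R 4.3.3 with TMM and filterByExpr, checked on simulated counts, with DESeq2 1.42.0 as an alternative. Replicates are separate fish for the tumors and the labelled pools for the controls. The control libraries agreed by letter and not by pool. Each pool summed by label holds a library of both letters, so the spread between the pools can be too small for separate samples. Members, gene lists and tests were chosen with earlier results of these data known. Named genes are the members, the genes on either side of each threshold, list genes and rb1. The further genes of looser thresholds and families were chosen after their values were seen. All 6 identifiers had an entry in the reference name table, and 19376 of 27039 RefSeq protein-coding genes were matched by symbol.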

Additional observations from a re-analysis of the deposited data

Results flagged for a closer look

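In 10 tumors, a value was marked by Dixon's 95% limit: the gap between extreme and next tumor was more than 0.466 of the range. Chance passes this limit in about 1 of 20 groups of normally distributed values, a form that was not checked for these levels. Of 39 values read in this way 13 were marked. The 6 members were among them, as the rule that chose them requires: gngt1 (25.7 CPM), BX004774.2 (23.4 CPM), rbp4l (16.6 CPM) and arr3a (11.1 CPM) in tumor 10, hoxb7a (32.1 CPM) in tumor 6 and SSTR2 (34.8 CPM) in tumor 9.

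The targeted gene rb1 was marked in tumor 9, with 107 CPM against 19.6 to 65.8 CPM in the other tumors. Its gap was 0.473 of the range, barely past the limit of 0.466. The next value, 65.8 CPM, was that of tumor 6.

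Among the summed levels of 32 tissue lists without their members, 6 were marked. The lists were chosen with the members known, so these marks are a description. Tumor 10 was the extreme for the photoreceptor list (699 CPM, most of it gnb1b), the pineal list (110.3 CPM), the liver list (968 CPM) and the red cell list (735 CPM). Tumor 6 was the extreme for the HOX list (114 CPM), and tumor 1 for the T and NK cell list (698 CPM against 45.0 to 384 CPM in the other tumors).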

How the results depend on the processing

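The number of members depended on the thresholds: 6 genes became 33 at an upper threshold of 5 CPM, 22 at a lower threshold of 2 CPM, 2 at a lower threshold of 0.5 CPM, 11 with the thresholds on the FPKM scale and 69 with both relaxed, a choice made after seeing the data. It was 4 to 9 under the other settings with all tumors (20 CPM, TMM scaling, a single library, controls summed by letter or not used). Leaving out 1 tumor gave 2 to 8 genes, and the 2 were without tumor 10. The levels of the members in their tumors stayed within 93.7% to 106% of the reported values under TMM scaling and in each library.

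With the control libraries summed by letter, 4660 of 20924 genes tested were called higher in tumors and 5262 lower. Summed by label, these were 4779 and 5220. Tumor against control, 0 members were called under every setting except DESeq2 without replacement of counts (1). With the replacement, the log2 fold change of BX004774.2 was -1.58 and that of arr3a -1.64, the reverse of 1.52 and 1.35, because the count of tumor 10 was replaced. Leaving out 1 sample gave 2904 to 5046 genes called higher and 3576 to 5391 called lower. The lowest values were without control pool 2 (2904 and 3576), and without control pool 1 they were 2949 and 3626, fits in which the lone pool is taken to vary like the tumors.

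Tumors and pools share only the numbers 1 and 2 in their labels and come from different fish. Their deviations from the group means correlated by 0.01 in both same-numbered pairs. The control libraries of each letter agreed within sampling noise across the pools, so this value cannot tell whether the numbers pair tumors and pools. With the replicate block 3696 genes were higher and 3491 lower, in place of 4779 and 5220, and 0 members were called.

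Depth limits the low side of the rule: at 18.5 to 24.95 M counts, 1 CPM is 18.5 to 24.95 counts, and the intervals of values such as 19 counts of BX004774.2 (0.579 to 1.502 CPM) reach past the threshold.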
